A study of Mus musculus with 6 samples.

Results

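The genes described here encode the disulfide isomerases and thiol oxidases of the endoplasmic reticulum (ER). They are 9 genes taken by name, Pdia3, Pdia4, Pdia6, P4hb, Txndc5, Dnajc10, Ero1l, Ero1lb and Creld2, out of 27998 genes in the count matrix, and all 9 were found in it. They were followed in single-cell RNA libraries of epithelial monolayers differentiated from mouse intestinal organoids. There were 3 groups of 2 libraries: DMSO, the solvent control, and 0.5 µg/ml of tunicamycin for either 13 h or 25 h. Tunicamycin blocks N-linked glycosylation, so that secretory proteins misfold in the ER. Every group, the control included, carried the same genotype, a Rosa26-floxed STOP-Cas9 allele crossed with cmv-cre on B6, that is, Cas9 behind a floxed stop cassette together with a Cre transgene under the cmv promoter. Cultures of the 13 h group were first kept in DMSO, and harvest was on differentiation day 4. The growth protocol speaks of colonic spheroids and the tissue label of small intestine, and no source used here states the age or number of the mice. Nothing states that the 2 libraries of a group came from separate cultures or animals, so the p-values measure only the spread between these libraries, which may be technical.

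Proteins that enter the ER lumen with reduced cysteines are oxidised there. Isomerases of the thioredoxin fold pass disulfide bonds to client proteins and exchange wrong pairs for right ones, and the Ero1 oxidases reload the isomerases with oxidising equivalents taken from oxygen. In the gut, goblet cells depend on this machinery because mucins and trefoil factors are rich in disulfides. Several of the genes are classical targets of the unfolded protein response, the transcriptional programme that enlarges the folding capacity of the ER.

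The response has a known sequence counterpart, the ER stress response element, in which CCAAT and CCACG are separated by 9 bases. A search on both strands of the RefSeq promoter windows of build GRCm38.p6, each reaching from 250 bases before to 50 bases after a start site, found this element, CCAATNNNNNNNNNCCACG, in 39 of 32851 windows (0.119%). The 9 genes had 11 such windows, with the Ero1 genes listed as Ero1a and Ero1b, and 3 windows held a match: those of Pdia6, Creld2 and Ero1lb. The stretches from base -250 to base -51 of these 3 windows are shown because they carry the matches, 5′ to 3′ on the strand of the gene, with the match in capitals. The match of Pdia6 reads in the direction of the gene and starts at -98, and those of Creld2 and Ero1lb read in the opposite direction and start at -126 and -201.
Pdia6, chr12:17266339-17266538, plus strand: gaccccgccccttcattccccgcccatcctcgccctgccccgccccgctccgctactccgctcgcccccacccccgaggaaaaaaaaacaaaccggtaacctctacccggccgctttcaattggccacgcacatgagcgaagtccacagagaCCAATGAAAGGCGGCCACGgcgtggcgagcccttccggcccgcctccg
Creld2, chr15:88819396-88819595, plus strand: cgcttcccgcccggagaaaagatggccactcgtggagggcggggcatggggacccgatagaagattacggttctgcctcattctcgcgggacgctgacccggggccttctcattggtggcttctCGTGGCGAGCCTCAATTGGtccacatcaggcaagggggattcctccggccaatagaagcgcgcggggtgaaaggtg
Ero1lb, chr13:12565633-12565832, plus strand: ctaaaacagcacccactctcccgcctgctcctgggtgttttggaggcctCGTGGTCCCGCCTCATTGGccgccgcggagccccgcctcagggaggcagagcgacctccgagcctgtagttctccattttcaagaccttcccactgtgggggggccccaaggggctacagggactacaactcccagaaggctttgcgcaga

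The second form of the element, ATTGG and CCACG separated by 1 base, occurred in 0.0365% of all windows and in none of the 11. The core TGACGTG occurred in 2.01% of windows and the ATF4-type motif TGATGNAA in 3.97%, and among the 9 genes each was found once, in different start-site windows of Txndc5. A match is a description of the letters only. Of the genes with a match of the first element, Pdia6 and Creld2 had the largest fold changes of the 9 genes in enterocytes and Ero1lb passed the test in no comparison. Pdia4, next by fold change, has none of these motifs in its window.

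After a filter on UMIs, genes and mitochondrial content 5026 of 5122 deposited cells remained, with between 9432005 and 19539013 unique molecular identifiers (UMIs) per library. Cell classes are the authors' own and are part of the deposited cell names. Cells named enterocyte and goblet had UMIs for all 8 markers of their class. Each of these classes also had UMIs for all 8 markers of the other, so detection alone does not tell them apart. Goblet markers summed to between 191300 and 210893 CPM (counts per 1000000 counts of the library or class) in DMSO goblet cells and to between 3990 and 4078 in DMSO enterocytes. This sum was lower after tunicamycin, between 103138 and 111166 CPM in goblet cells at 13 h, then between 69122 and 87439 at 25 h, and the enterocyte marker sum in enterocytes went from between 3523 and 3551 CPM to between 1536 and 1560 at 25 h. Immune markers summed to at most 1.12 CPM in enterocytes and 2.52 in goblet cells, fibroblast markers to at most 0.497 and 0, and the T cell and pan-leukocyte markers Cd3e and Ptprc were at 0 in both classes. Of the plasma cell markers, Jchain and Mzb1 were at 0 and the sum of between 313 and 430 CPM in enterocytes came from Sdc1, which epithelia also express. Some markers of other secretory cells were present in goblet cells, with sums lower at 25 h. Paneth markers then summed to 225 and 315 CPM against 712 and 430 in DMSO, and enteroendocrine markers to 41.3 and 57.7 against 288 and 293. Of 5 Paneth markers 4 had a UMI in goblet cells, and Defa17 was at 0. Only 2 of 8 enteroendocrine markers had a UMI there, and Cck, Chga, Chgb, Gcg, Pyy and Tph1 were at 0. The part of other secretory cells in the goblet results was not tested. The mitochondrial share of UMIs was 8.99% and 9.004% in DMSO, between 8.44% and 8.84% at 13 h, then between 7.24% and 7.52% at 25 h. With only cells of at most 10% mitochondrial UMIs, 107 log2 differences of the 9 genes kept sign and call. A further 1 changed sign, 1 gained a call and 1 lost it. Beyond this cell filter the part of the mitochondrial share in the results was not tested. Goblet cells made up 8.91% and 9.36% of cells in DMSO, 9.87% and 9.14% at 13 h, then 18.2% and 15.8% at 25 h, so that values over all cells mix classes in unequal parts. Values of the 9 genes are therefore given by class first. Their CPM relate a gene's UMIs to the total of its class in a library after TMM scaling. They are not divided by transcript length, because each 3′ library molecule is counted once. A gene is said to have risen or fallen only where the quasi-likelihood test of edgeR gave a Benjamini-Hochberg adjusted p below 0.05 over all genes tested, and errors of log2 fold changes are standard errors (SE).

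In enterocytes 8 of the 9 genes rose at 13 h, against 23.8% of all 11145 genes tested, and the same number rose at 25 h, against 26.1%. Only Ero1lb did not pass. Their sum went from 1264 and 1279 CPM in the DMSO libraries to 4203 and 4424 at 13 h, then 3103 and 3236 at 25 h. Both tunicamycin comparisons use the same DMSO libraries. From 13 h to 25 h 8 genes fell, against 10.9% of all genes, and each of these 8 stayed above DMSO.

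**Figure D1:**
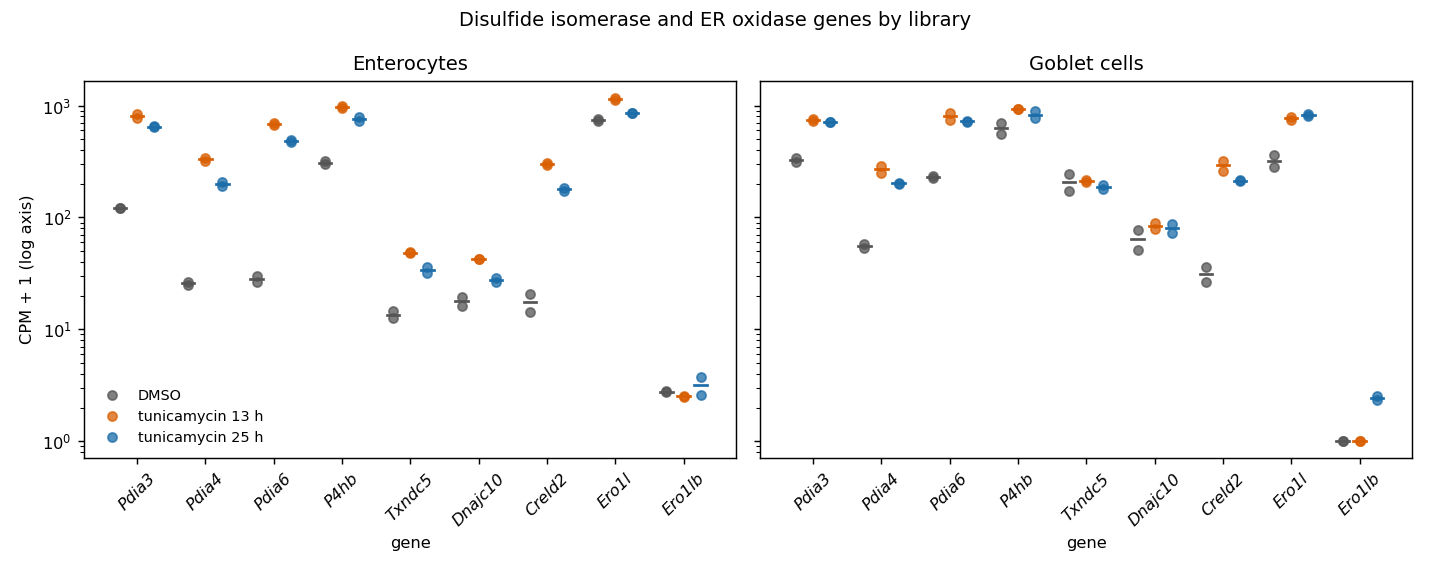
Level of each gene in CPM + 1 on a log axis, by gene, in enterocytes (left) and goblet cells (right). Each point is 1 library and each short bar the mean of 2. In enterocytes Pdia6 moves farthest, from 25.5 and 29.3 CPM in DMSO to 664 and 703 at 13 h, while in goblet cells the DMSO points of Txndc5, 241 and 171 CPM, enclose all its tunicamycin points.

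Among the isomerases, Pdia6 changed most. It encodes an isomerase known to work beside the chaperone BiP, and lies at chr12:17266545-17284770 on the plus strand. In enterocytes it stood at 25.5 and 29.3 CPM in DMSO, 664 and 703 at 13 h, then 474 and 489 at 25 h. Its level was thus near that of the lowest members in DMSO and beside Pdia3 after tunicamycin. The rise was 25.5-fold at 13 h (log2 4.67 ± 0.07 SE, adjusted p = 5.04e-15) and 18.1-fold at 25 h (4.18 ± 0.07, adjusted p = 2.33e-14). From 13 h to 25 h it fell by 0.49 on the log2 scale (adjusted p = 2.08e-05).

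Pdia4 encodes an isomerase with an additional thioredoxin-like active site and lies at chr6:47796141-47813430 on the minus strand. It stood at 24.0 and 25.5 CPM in DMSO enterocytes, 317 and 341 at 13 h, then 189 and 205 at 25 h. It rose 13.6-fold at 13 h (3.76 ± 0.07, adjusted p = 2e-14) and 8.20-fold at 25 h (3.04 ± 0.07, adjusted p = 3.39e-13). The later fall was among the steepest of the 9 genes, -0.72 on the log2 scale (adjusted p = 6.46e-07).

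Pdia3, the isomerase that calnexin and calreticulin bring to glycoproteins, lies at chr2:121413775-121438687 on the plus strand. Both DMSO libraries gave 121 CPM, the 13 h libraries 767 and 834, and the 25 h libraries 637 and 652. This was a 6.72-fold rise at 13 h (2.75 ± 0.05, adjusted p = 5.51e-14) and a 5.46-fold rise at 25 h (2.45 ± 0.05, adjusted p = 2.83e-13). The exons of Pdia3 overlap those of Catsper2 on the other strand, and no source used here says whether counting used the strand. Catsper2 had at most 3.03 CPM in any enterocyte library, and it rose too (log2 3.53 at 13 h).

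P4hb encodes protein disulfide isomerase itself, which is also a subunit of the collagen prolyl 4-hydroxylase and of the microsomal triglyceride transfer protein. It lies at chr11:120560298-120573253 on the minus strand. It was the most abundant isomerase in DMSO, with 317 and 298 CPM, and reached 950 and 989 at 13 h, then 724 and 782 at 25 h. The rise was smaller than that of the preceding genes, 3.21-fold at 13 h (1.68 ± 0.05, adjusted p = 5.54e-12) and 2.52-fold at 25 h (1.33 ± 0.05, adjusted p = 7.42e-11).

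Txndc5, an isomerase with several thioredoxin domains, lies at chr13:38500079-38528824 on the minus strand. In enterocytes it had 11.7 and 13.5 CPM in DMSO, 47.6 and 47.5 at 13 h, then 30.6 and 35.3 at 25 h. It rose 3.86-fold (1.95 ± 0.09, adjusted p = 2.74e-10) and 2.70-fold (1.43 ± 0.10, adjusted p = 2.92e-08). The DMSO level in enterocytes was 4.83% and 7.87% of that in goblet cells of the same library. Goblet markers in enterocytes stood at between 0.272% (Zg16) and 7.32% (Fcgbp) of their goblet level in DMSO, and Muc2 and Clca1 at under 1%. The value of Txndc5 thus lay between those of Spink4 and Fcgbp in replicate 1 and above all 8 markers in replicate 2, and that of Pdia6, at 11.3% and 12.6%, above all 8 in both. How much of the Txndc5 signal of enterocytes is free goblet RNA was not tested, and neither was the part of such RNA in the folds. After 13 h the ratio for Txndc5 was 23.2% and 22.2%, above every goblet marker (at most 13.3%, Spink4).

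Dnajc10 encodes a reductase that opens disulfides of misfolded proteins before they leave the ER, and lies at chr2:80315466-80354043 on the plus strand. It had 18.5 and 15.03 CPM in DMSO enterocytes, 41.7 and 41.6 at 13 h, then 25.7 and 27.7 at 25 h. It rose 2.53-fold (1.34 ± 0.09, adjusted p = 1.51e-08) and 1.64-fold (0.71 ± 0.10, adjusted p = 4.12e-05). Its fall from 13 h to 25 h was -0.63 on the log2 scale (adjusted p = 1.94e-04).

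Creld2, whose product has EGF-like domains and isomerase-like activity, lies at chr15:88819646-88826683 on the plus strand. It went from 13.3 and 19.7 CPM in DMSO enterocytes to 292 and 304 at 13 h, then 173 and 181 at 25 h. Its rise of 18.4-fold at 13 h (4.204 ± 0.11, adjusted p = 6.32e-13) and 11.02-fold at 25 h (3.46 ± 0.11, adjusted p = 8.21e-12) came next to that of Pdia6. A single DMSO replicate 2 cell held 20.1% of the Creld2 UMIs of that library's enterocytes, and without it the rise at 13 h was 4.39 on the log2 scale.

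Of the oxidases, Ero1l (chr14:45283087-45318771, minus strand), which encodes Ero1-alpha, was the most abundant of the 9 genes in DMSO enterocytes and changed little. It stood at 731 and 754 CPM in DMSO, 1122 and 1162 at 13 h, then 849 and 861 at 25 h. The rise was 1.57-fold at 13 h (0.65 ± 0.04, adjusted p = 3.01e-08) and 1.18-fold at 25 h (0.24 ± 0.04, adjusted p = 3.63e-04). Ero1lb (chr13:12565874-12611396, plus strand), which encodes Ero1-beta, known from hormone-secreting cells, had between 13 and 29 UMIs per library in enterocytes. It stood at 1.73 and 1.79 CPM in DMSO, 1.55 and 1.499 at 13 h, then 1.61 and 2.73 at 25 h. Neither the difference at 13 h (-0.18, interval -0.79 to 0.43, adjusted p = 0.66) nor that at 25 h (0.35, interval -0.26 to 0.97, adjusted p = 0.37) passed. A change within these 95% intervals was not detectable at this depth.

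The unequal rises changed the make-up of the set. Ero1l supplied 57.9% (95% exact interval 57.2 to 58.5) and 59.0% (58.3 to 59.6) of the UMIs of the 9 genes in DMSO enterocytes. At 13 h it supplied 26.7% and 26.3%, and at 25 h 27.4% and 26.6%. Pdia6 went from 2.01% and 2.29% to 15.8% and 15.9%, and then 15.3% and 15.1%. Creld2 went from 1.05% and 1.54% to 6.96% and 6.88% and then 5.56% and 5.59%. P4hb kept between 22.4% and 25.1% throughout. Shares of a total are complementary and are not separate results, and the intervals cover counting error only.

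**Figure D2:**
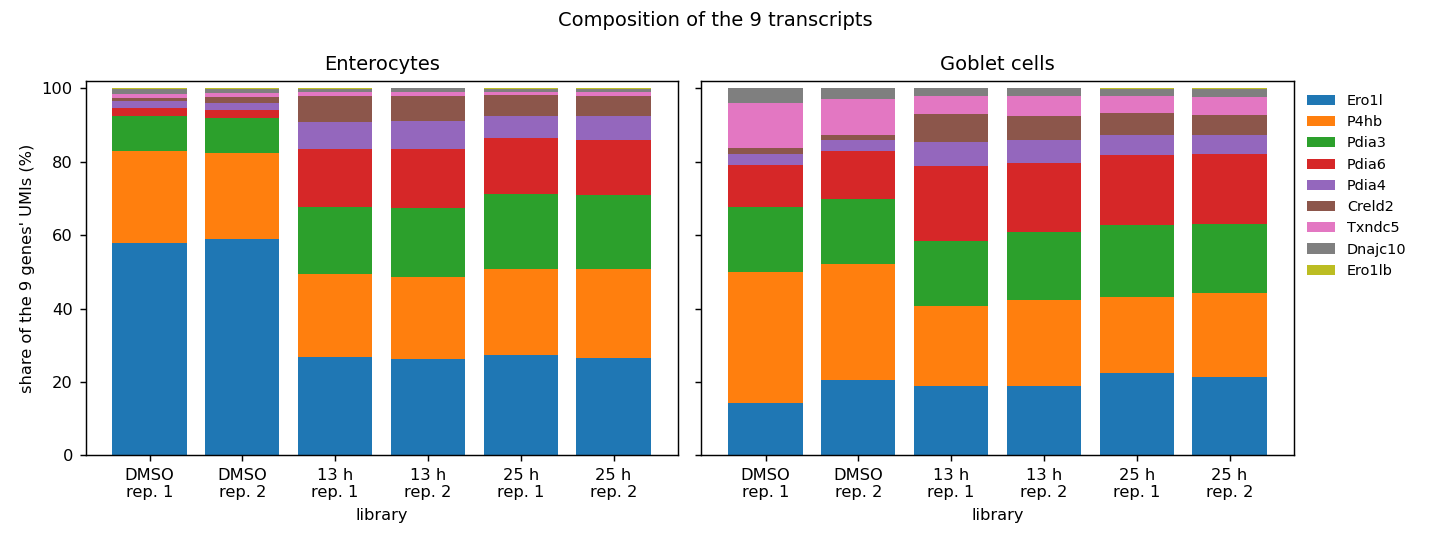
Share of the UMIs of the 9 genes that each gene holds, in percent, stacked by library in enterocytes (left) and goblet cells (right). Ero1l falls from 57.9% and 59.0% in DMSO enterocytes to between 26.3% and 27.4% after tunicamycin, whereas in goblet cells it lies between 14.4% and 22.5% in all 6 libraries.

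In goblet cells the same comparisons called 6 genes. At 13 h 6 genes rose, against 10.8% of the 7839 genes tested, and at 25 h 6 rose, against 15.8%. Ero1lb was not tested there, since it had 0 UMIs in the DMSO and 13 h goblet cells and 2 in each 25 h library. With 105 and 109 DMSO goblet cells the depth is far below that of enterocytes. The sum of the 9 genes went from 1958 and 1764 CPM to 4229 and 3928 at 13 h, then 3691 and 3833 at 25 h.

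Creld2 rose most in goblet cells, from 35.3 and 25.7 CPM in DMSO to 320 and 261 at 13 h, then 214 and 209 at 25 h (log2 3.26 ± 0.19, adjusted p = 5.23e-11, and 2.81 ± 0.19, adjusted p = 1.56e-10). Pdia4 went from 57.1 and 52.2 CPM to 287 and 248 and then 203 and 197 (2.29 ± 0.15 and 1.89 ± 0.15, adjusted p = 7.1e-10 and 3.72e-09). Pdia6 went from 226 and 233 CPM to 853 and 741 and then 708 and 732 (1.80 ± 0.11 and 1.66 ± 0.11, adjusted p = 5.66e-10 and 4.28e-10). Thus Pdia6, first among the 9 genes in enterocytes, followed Creld2 and Pdia4 here. Pdia3 went from 342 and 312 CPM to 755 and 725 and then 716 in both libraries (1.18 ± 0.10 and 1.15 ± 0.10, adjusted p = 7.78e-08 and 3.48e-08).

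Ero1l, which changed little in enterocytes, rose 2.39-fold in goblet cells at 13 h (1.26 ± 0.12, adjusted p = 1.63e-07) and 2.58-fold at 25 h (1.37 ± 0.12, adjusted p = 1.91e-08). Its levels were 282 and 361 CPM in DMSO, 796 and 740 at 13 h, then 832 and 813 at 25 h, so the groups with and without tunicamycin do not overlap. P4hb stood at 699 and 558 CPM in DMSO, 924 and 922 at 13 h, then 765 and 886 at 25 h. It passed at both times (0.56 ± 0.11, adjusted p = 0.00112, and 0.41 ± 0.11, adjusted p = 0.00861), but not without DMSO replicate 2 (0.41, adjusted p = 0.053, and 0.26, adjusted p = 0.196) and, at 25 h, not without 25 h replicate 2 (0.29, adjusted p = 0.0945).

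The reductase and 1 isomerase did not pass in goblet cells. Txndc5 stood at 241 and 171 CPM in DMSO, 205 and 214 at 13 h, then 179 and 192 at 25 h, with differences of 0.03 (interval -0.25 to 0.31, adjusted p = 0.907) and -0.13 (-0.41 to 0.14, adjusted p = 0.518). The DMSO libraries alone span all 4 tunicamycin libraries. Dnajc10 stood at 75.6 and 50.6 CPM in DMSO, 88.9 and 78.3 at 13 h, then 71.4 and 86.2 at 25 h (0.42, interval 0.05 to 0.79, adjusted p = 0.123, and 0.34, interval -0.02 to 0.70, adjusted p = 0.176). It passed with scaling by total counts (0.58, adjusted p = 0.0232, and 0.47, adjusted p = 0.0478) and, at 13 h, without DMSO replicate 1 (0.72, adjusted p = 0.0445). From 13 h to 25 h 0 of the 8 genes tested fell in goblet cells, against 1.47% of all genes. DESeq2 also called 0, and by the unadjusted p of edgeR Creld2 (0.0024) and Pdia4 (0.00297) lay below 0.05. Creld2 came nearest (-0.45, adjusted p = 0.0616). It passed without 13 h replicate 2 (-0.59, adjusted p = 0.0399) and with total-count scaling (-0.48, adjusted p = 0.0409), no gene filter (-0.46, adjusted p = 0.0202) or the replicate block (-0.44, adjusted p = 0.0417).

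**Figure D3:**
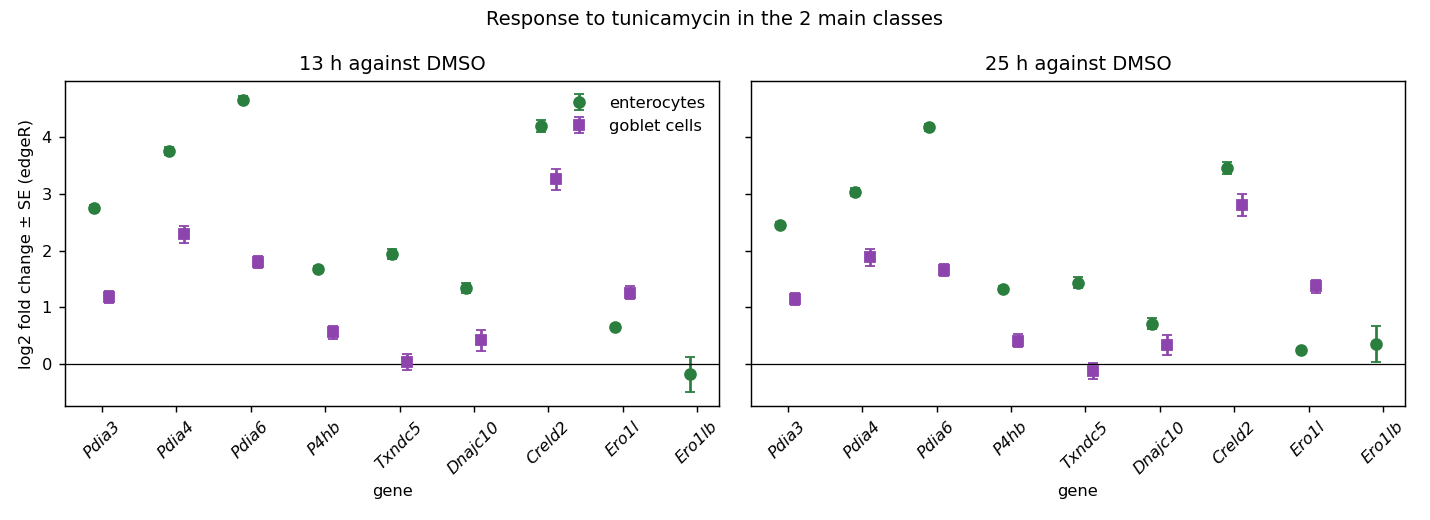
Log2 fold change of each gene against DMSO at 13 h (left) and 25 h (right), with the SE of the edgeR fit as bars, in enterocytes (circles) and goblet cells (squares). The goblet value lies below the enterocyte value for 7 genes at both times and above it for Ero1l, and Ero1lb was tested in enterocytes only.

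Whether the classes differ was tested directly, with the library as a block. In DMSO 7 of the 8 genes tested were higher in goblet cells than in enterocytes, against 17% of 10458 genes. Txndc5 was 17.6-fold higher (log2 4.14 ± 0.12, adjusted p = 2.44e-26), Pdia6 9.08-fold (3.18 ± 0.09, adjusted p = 5.33e-26) and Dnajc10 4.06-fold (2.02 ± 0.14, adjusted p = 8.96e-14). The other 4, Pdia3 (1.54), Pdia4 (1.26), P4hb (1.14) and Creld2 (0.99), were between 1.99-fold and 2.91-fold higher. Creld2 lost its call without DMSO replicate 1 (0.50, adjusted p = 0.241). Ero1l alone was lower in goblet cells (-1.10 ± 0.08, adjusted p = 1.82e-14), against 18.1% of genes lower. Although goblet cells were 8.91% and 9.36% of the cells in DMSO, they held 55.0% (95% exact interval 50.6 to 59.3) and 48.6% (43.9 to 53.3) of all Txndc5 UMIs, and 2.63% and 3.65% of those of Ero1l.

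The response differed between the classes for all 8 genes at 13 h. The log2 fold change against DMSO was lower in goblet cells for 7, against 3.33% of all genes, and higher for Ero1l, against 1.48%. The difference was widest for Pdia6 (-2.91 ± 0.12 on the log2 scale, adjusted p = 6.84e-20) and Txndc5 (-1.95 ± 0.16, adjusted p = 1.96e-11). Without DMSO replicate 1 those of Creld2 (-0.45, adjusted p = 0.644), Dnajc10 (-0.77, adjusted p = 0.136) and Ero1l (0.46, adjusted p = 0.062) did not pass, and without 13 h replicate 2 that of Creld2 did not (-0.81, adjusted p = 0.0531). With DESeq2 that of Dnajc10 did not pass (-0.90, adjusted p = 0.0585). At 25 h the log2 fold change was lower in goblet cells for 5 genes, against 4.5%. For Ero1l it was again higher (difference 1.09 ± 0.11, adjusted p = 1.45e-09), against 2.55%. Creld2 (-0.69, adjusted p = 0.0581) and Dnajc10 (-0.42, adjusted p = 0.237) did not pass at 25 h. Creld2 did pass without DMSO replicate 2 (-1.15, adjusted p = 0.0118) and without the single DMSO cell named above (-0.87, adjusted p = 0.00722).

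The levels of the classes at 13 h were not tested against each other. Enterocyte levels were then 102% and 115% of goblet levels for Pdia3, 111% and 137% for Pdia4 and 103% and 107% for P4hb. They were 91.3% and 117% for Creld2, 77.8% and 94.9% for Pdia6 and 141% and 157% for Ero1l. For Dnajc10 they were 47.0% and 53.1%, and for Txndc5 23.2% and 22.2%. At 25 h the levels of several genes in the classes also lay close together. Pdia4 had 203 and 197 CPM in goblet cells and 189 and 205 in enterocytes (log2 difference 0.07, interval -0.10 to 0.25, adjusted p = 0.581). Ero1l had 832 and 813 CPM against 849 and 861 (-0.01, interval -0.15 to 0.14, adjusted p = 0.957). P4hb was at 0.18 (interval 0.04 to 0.32, adjusted p = 0.0524), and it was called higher in goblet cells with RLE scaling (0.22, adjusted p = 0.0179), with at most 10% mitochondrial UMIs (0.25, adjusted p = 0.00776) and without DMSO replicate 1 (adjusted p = 0.0374) or 2 (adjusted p = 0.0321). At this time 5 genes were called higher in goblet cells, against 14.8% of genes: Txndc5 (2.55 ± 0.11), Dnajc10 (1.61 ± 0.13), Pdia6 (0.63 ± 0.08), Creld2 (0.31 ± 0.10) and Pdia3 (0.20 ± 0.07). Creld2 and Pdia3 lost the call without 25 h replicate 1 (0.28, adjusted p = 0.202, and 0.21, adjusted p = 0.195), without 25 h replicate 2 (0.36, adjusted p = 0.0565, and 0.21, adjusted p = 0.174) and with DESeq2 (0.35, adjusted p = 0.12, and 0.24, adjusted p = 0.0687). Pdia3 also lost it with total-count scaling (0.16, adjusted p = 0.0951), no gene filter (0.15, adjusted p = 0.15) and at most 10% mitochondrial UMIs (0.18, adjusted p = 0.0587).

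**Figure D4:**
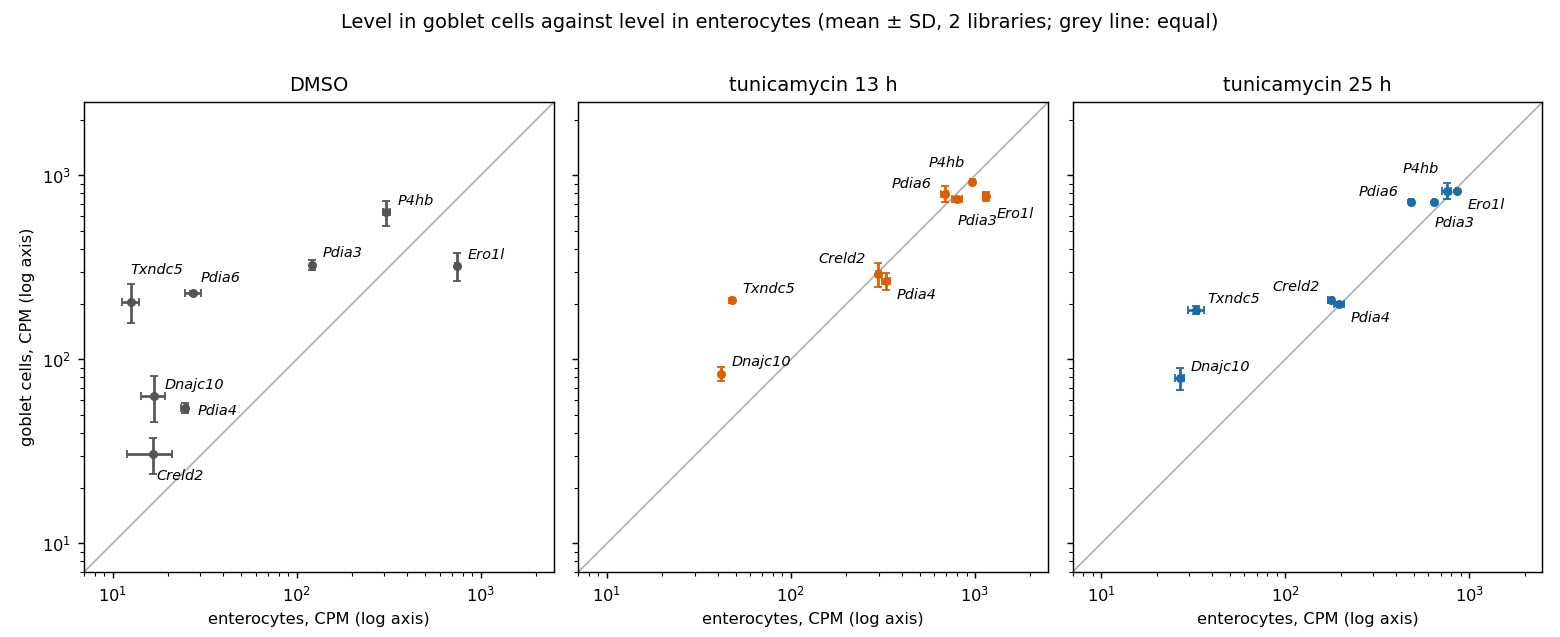
Mean level in goblet cells (y axis) against enterocytes (x axis), in CPM on log axes, for 8 genes in DMSO, at 13 h and at 25 h, with the SD of 2 libraries as bars and a grey line of equal levels. In DMSO 7 genes lie above the line and Ero1l below it. After tunicamycin Txndc5 and Dnajc10 lie farthest above the line. The CPM were scaled within each class and not between classes.

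In all cells together, which mix the classes, 8 genes rose at 13 h (21.4% of 11474 genes did) and at 25 h (24.5%), and 7 fell from 13 h to 25 h (9.6%). For Txndc5 such a sum and the classes differ. Over all cells it stood at 27.5 and 25.9 CPM in DMSO and 61.0 and 60.6 at 13 h, a 2.29-fold difference against 3.86-fold in enterocytes and a log2 difference of 0.03 in goblet cells. Its change from 13 h to 25 h did not pass over all cells (-0.12, adjusted p = 0.179) and passed in enterocytes (-0.51, adjusted p = 4.87e-04), while the goblet share of cells was higher at 25 h. Dnajc10 fell from 13 h to 25 h over all cells (-0.39, adjusted p = 0.0155), but not without either 13 h library (adjusted p = 0.0807 and 0.0627) or without 25 h replicate 1 (adjusted p = 0.0653).

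The remaining class carries the authors' name tuft, after chemosensory cells. It had between 12 and 27 cells per library. In DMSO its enteroendocrine markers summed to 1537 and 3851 CPM against 53.7 and 77.5 for tuft markers, and these sums go against the name. Over all DMSO cells, however, the single marker Sct held 2336 of 2394 and 2275 of 2325 enteroendocrine UMIs. In DMSO cells of this class 7 of 8 tuft markers and 3 of 8 enteroendocrine markers had a UMI. In DMSO enterocytes, with 1046 and 1037 cells against 27 and 19 here, 7 of 8 and 4 of 8 had a UMI. Detection at such unequal depth does not set this class apart from them. The sums were lower in DMSO enterocytes, at 1.91 and 3.53 CPM for tuft markers and 47.3 and 43.7 for enteroendocrine markers. Sums and detection within this class thus differ, and no test was made. After tunicamycin the balance differed, with tuft markers at 218 and 578 CPM against 133 and 368 at 13 h, and 414 and 108 against 390 and 1158 at 25 h. The levels that follow therefore come from libraries whose cells of this class differ in make-up. Pdia6 stood at 172 and 146 CPM in DMSO, 1019 and 881 at 13 h, then 621 and 838 at 25 h. Creld2 stood at 22.0 and 9.29 CPM, then 483 and 682, then 286 and 395. Ero1l, at 209 and 108 CPM in DMSO and between 251 and 438 after tunicamycin, was below its enterocyte level in every library. Ero1lb had between 0 and 7 UMIs per library.

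Counted cell by cell, most cells of both classes had more UMIs of the 9 genes after tunicamycin than the upper range of DMSO cells. Each cell was thinned to 5000 UMIs, which left out 42 shallower enterocytes and 31 shallower goblet cells. The median enterocyte then had 5 UMIs of the 9 genes in both DMSO libraries, 21 in both 13 h libraries and 15 in both 25 h libraries. The share of enterocytes above the 95th percentile of DMSO enterocytes, 12 UMIs, was 82.4% and 85.1% at 13 h, then 66.3% and 68.4% at 25 h. At 13 h the percentiles that bound the lowest and highest 10% of enterocytes were 9 and 34 UMIs in replicate 1 and 10 and 35 in replicate 2, and in DMSO they were 2 and 11 in both replicates. The median goblet cell had 9 and 7 UMIs in DMSO, 23 and 20 at 13 h, then 18 and 19 at 25 h. Above the goblet DMSO percentile were 76.4% and 67.1% of goblet cells at 13 h, then 56.3% and 63.4% at 25 h. With all deposited cells, thinned in another random draw, they were 74.0% and 58.6% at 13 h, then 65.6% and 58.5% at 25 h. The 25 h goblet cells were the same 96 and 82 in both draws, so the draw alone moved these shares. In the second draw the libraries of 13 h and 25 h overlapped. Cells are not replicates, and 2 libraries against 2 cannot reach an exact two-sided permutation p below 0.3333, so these shares were not tested.

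**Figure D5:**
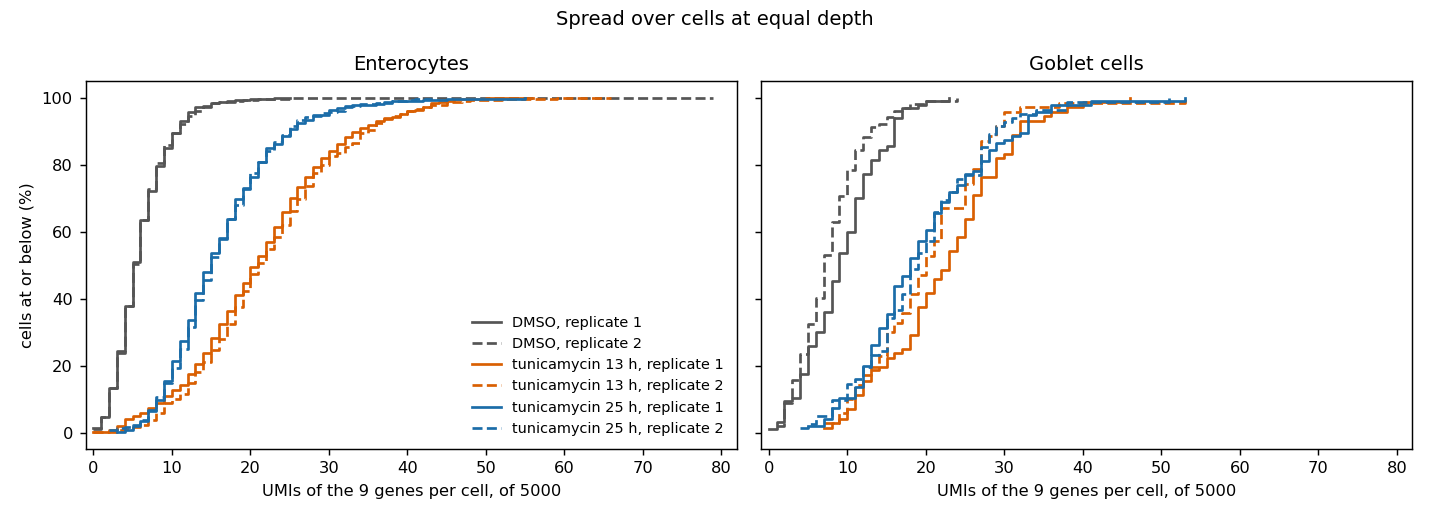
Cumulative share of cells (y axis, percent) by the number of UMIs of the 9 genes among 5000 UMIs of the cell (x axis), for each library, in enterocytes (left) and goblet cells (right). Enterocyte medians are 5, 21 and 15 UMIs for DMSO, 13 h and 25 h. In replicate 1 the 13 h and 25 h curves cross at the low end, where 4.11% of cells at 13 h and 0.708% at 25 h have at most 4 UMIs. In replicate 2 the order at 4 UMIs is the other way, with 0.972% at 13 h and 1.58% at 25 h.

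Within a library, UMIs of some isomerases varied together from cell to cell. Among 13 h enterocytes at equal depth, which share library and depth, Pearson's r across cells was 0.51 and 0.46 for Pdia3 with Pdia6 and 0.39 and 0.33 for Pdia4 with Pdia6. For P4hb with Ero1l it was -0.02 and -0.05. In DMSO enterocytes, where cells hold few UMIs of either gene, r for Pdia3 with Pdia6 was 0.13 in replicate 1 and 0.44 in replicate 2, or 0.11 there without the single cell named above. These are descriptions across cells and not across replicates.

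The rest of the isomerase family is described over all cells. Of 15 other genes 10 were tested, of which 6 rose and 1 fell at each time. Over all genes 21.4% rose and 24.3% fell at 13 h, and 24.5% rose and 26.1% fell at 25 h. The list's median was positive (median log2 0.59 at 13 h and 0.40 at 25 h, against -0.01 and 0.01 for all genes). The member medians were 1.55 and 1.23. Pdia5, a less abundant isomerase, went from 1.90 and 2.11 CPM to 13.4 and 15.2 at 13 h, then 10.9 and 9.19 at 25 h (2.84 ± 0.18 and 2.34 ± 0.19). As for most members, the log2 fold change of Pdia5 was lower in goblet cells than in enterocytes (edgeR interaction -2.93 ± 0.42, adjusted p = 3.97e-06, and -1.73 ± 0.43, adjusted p = 0.00495). Txndc11 rose as well (1.48 and 1.18), and so did Erp29, a chaperone with a thioredoxin fold and no active cysteine pair (0.66 and 0.68). Agr2, the isomerase that goblet cells use for mucins, rose over all cells (0.83 and 2.05) and within goblet cells, from 3759 and 3438 CPM to 5231 and 5679 and then 6598 and 8017 (0.61 ± 0.10, adjusted p = 1.96e-04, and 1.04 ± 0.10, adjusted p = 1.57e-07).

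Of 11 other genes for thiol oxidation and peroxide handling in the ER, 9 were tested over all cells; 5 rose at 13 h, against 21.4% of all genes, and 6 at 25 h, against 24.5% (median 0.54 and 0.65). The thioredoxin-like selenoprotein genes Selenom (1.35 and 1.66) and Selenof (0.62 and 0.76) rose, as did Gfer (0.61 and 0.77), a sulfhydryl oxidase mainly of mitochondria, and Creld1 (1.57 and 1.92), a relative of Creld2. Qsox1, a sulfhydryl oxidase of the secretory pathway, stood at 97.2 and 96.8 CPM in DMSO, 100.2 and 92.3 at 13 h, then 97.4 and 101.6 at 25 h (-0.0028, adjusted p = 0.973, and 0.06, adjusted p = 0.415). By class, Qsox1 was higher in goblet cells, at 338 and 267 CPM in DMSO, 289 and 292 at 13 h, then 226 and 246 at 25 h, where it fell (-0.34 ± 0.12, adjusted p = 0.0382), and in enterocytes it lay between 73.2 and 84.7 CPM in all 6 libraries. Prdx4, the peroxiredoxin that uses peroxide from Ero1, had at most 1.11 CPM in any library and did not pass.

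Partners of the 9 genes include chaperones and the subunits that join P4hb in enzymes. Of 10 partner genes 9 were tested over all cells, of which 7 rose and 2 fell at each time (median 1.37 and 1.23), against the 21.4% and 24.5% of all genes that rose and the 24.3% and 26.1% that fell. The chaperones Hspa5 (4.48 and 3.78), Calr (2.84 and 2.70) and Canx (1.37 and 1.23) and the secreted ER factor Manf (3.47 and 3.06) rose. The genes that pair with P4hb in enzymes did not move alike: P4ha1, the catalytic subunit of prolyl 4-hydroxylase, rose by 0.41 and 0.34, and Mttp, the lipid transfer subunit, fell from 12.1 and 12.5 CPM to 7.93 and 7.28 and then 6.76 and 6.03 (-0.68 ± 0.12, adjusted p = 4.88e-04, and -0.92 ± 0.13, adjusted p = 9.79e-05).

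Genes of the glutathione and thioredoxin systems, which reduce thiols in the cytosol, gave another balance. All 9 of the list were tested, of which 3 rose and 6 fell at each time (median -0.48 and -0.42), against 24.3% of all genes lower at 13 h and 26.1% at 25 h. Glutaredoxin Glrx (-1.14 and -0.89), Gclm, a subunit of the glutathione-synthesising ligase (-0.77 and -0.74), and thioredoxin Txn1 (-0.76 and -0.57) fell, and Slc7a11, the cystine importer, rose (2.40 and 2.10). Of 7 regulators 6 rose at 13 h, against 21.4% of all genes, and 7 at 25 h, against 24.5% (median 0.85 and 0.89). Among them were Xbp1 (1.83 and 1.68) and Atf6 (0.85 and 0.42), transcription factors that act on ER folding genes, and Atf4 (1.81 and 1.70) and Ddit3 (4.08 and 3.31) of the PERK branch.

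Because these counts mix the classes, they were also taken by class. In enterocytes 6 of 10 other isomerase genes rose at each time and 7 of 9 partners, against 23.8% and 26.1% of all genes. In goblet cells 4 of 9 other isomerase genes rose at 13 h and 3 at 25 h, and 6 of 8 partners at each time, against 10.8% and 15.8%. Of 8 other ER thiol oxidation genes, 5 rose in enterocytes at 13 h and 6 at 25 h. In goblet cells 1 of 8 rose at 13 h, and 5 rose and 1 fell at 25 h. All 6 regulators tested rose in enterocytes at each time, and 4 of 7 in goblet cells. Of 9 glutathione and thioredoxin genes 3 rose in both classes at each time. In enterocytes 6 fell at each time, against 2655 and 2696 of all 11145 genes. In goblet cells 2 fell at 13 h and 3 at 25 h, against 905 and 1256 of 7839.

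The gene outside these lists whose pattern was most like that of each member was found by the root mean square difference of log2 CPM, centred on DMSO within each class, over 12 values (6 libraries in 2 classes) among 5005 genes of at least 20 CPM. P4hb was nearest to Spcs2 (0.105), Dnajc10 to Calu (0.122), Pdia4 to Hsp90b1 (0.169) and Ero1l to Ghitm (0.173). Pdia3 was nearest to Hid1 (0.231), Creld2 to Sdf2l1 (0.235) and Txndc5 to Cars (0.293). The 2 farthest pairs were Ero1lb with Dut (0.556), at very low counts, and Pdia6 with Hyou1 (0.597). The median difference over all candidates was 0.96 for P4hb and 2.76 for Pdia6.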

How the data were processed

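The authors deposited raw counts, each a number of UMIs of a gene in a cell, in a matrix of 27998 genes and 5122 cells, made with Cell Ranger on mm10, per the submitters' processing notes. No source used here gives its version, the cell filter or the strand setting. The deposited cell names give library and class; how doublets were treated before deposit is not given, and none were called here. Of the barcodes, 12 occur in more than 1 library and were kept apart. A filter of at least 1000 UMIs, at least 500 genes and no more than 25% mitochondrial UMIs removed 96 cells. Symbols and positions are those of GENCODE vM21, build GRCm38 (27645 of 27998 identifiers matched), and promoters from RefSeq GRCm38.p6.

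UMIs were summed per library, over all cells and by class, filtered with filterByExpr, scaled by TMM and tested with edgeR 4.0.16 (glmQLFit, glmQLFTest) in R 4.3.3, with group as the only term over all 6 libraries. The fit over all cells held 11474 genes (biological coefficient of variation 0.0493), that of enterocytes 11145 (0.0418) and that of goblet cells 7839 (0.0788). Classes were compared in 1 model of 12 class sums with the library as a block, over 10458 genes. Intervals of log2 differences are ± 1.96 SE. Libraries held between 9432005 and 19539013 kept UMIs, and the median kept cell between 14465 and 17298. The edgeR script was tested on simulated data. Alternatives were RLE and total-count scaling, DESeq2 1.42.0, no gene filter, other cell filters, each library left out in turn, fits of 2 groups only, a replicate block and another thinning depth. Named genes were all 9 members, the 4 genes of each list with the lowest adjusted p and some fixed names. The members and lists were chosen with earlier results of these data known.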

Additional observations from a re-analysis of the deposited data

Results flagged for a closer look

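The response to tunicamycin differed between goblet cells and enterocytes by a test of the difference itself, the interaction of class and treatment in edgeR with Benjamini-Hochberg adjustment, with both classes taken from the same 2 libraries per group. At 13 h the log2 difference of the response (goblet minus enterocyte) was -2.91 for Pdia6 (adjusted p = 6.84e-20), -1.95 for Txndc5 (1.96e-11), -1.61 for Pdia3 (8.5e-14) and -1.51 for Pdia4 (7.2e-08). It was -1.16 for P4hb (adjusted p = 1.63e-10), -0.98 for Creld2 (0.00422), -0.97 for Dnajc10 (7.45e-04) and 0.58 for Ero1l (4.48e-04). At 25 h it was -2.55 for Pdia6 (adjusted p = 5.7e-18), -1.59 for Txndc5 (4.25e-09), -1.34 for Pdia3 (1.24e-11) and -1.18 for Pdia4 (3.31e-06). It was -0.96 for P4hb (adjusted p = 7.98e-09) and 1.09 for Ero1l (1.45e-09). Goblet cells started from higher DMSO levels of the first 7 genes and from a lower level of Ero1l, and the goblet marker sum was lower after tunicamycin; the part of either in these differences was not tested.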

How the results depend on the processing

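Under the alternatives 368 recomputed counts and shares stayed within 1.5 times or 1 SD of the reported value. Counts of 0 that stayed 0 are among them. Beyond these limits 4 counts were higher, 4 counts were lower and 6 shares moved. The count of members higher in goblet cells at 25 h was 3 in place of 5 with DESeq2, and between 3 and 6 with a library left out. The count with a larger rise in goblet cells at 13 h was between 0 and 1 with a library left out, 0 without DMSO replicate 1. The count that fell in goblet cells from 13 h to 25 h was 1 in place of 0 with total-count scaling, with no gene filter and with the replicate block (Creld2, -0.44), and between 0 and 1 with a library left out. At 3000 UMIs per cell the shares above the DMSO percentile were 76.5% and 54.3% of enterocytes at 13 h and 25 h. For goblet cells they were 60.5% and 52.3%. With all deposited cells 80.2% and 60.4% of enterocytes lay above the DMSO percentile, which was 13 UMIs there in place of 12. The goblet shares with all deposited cells are given above by library. The causes were not tested.

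Reversals concerned differences near 0 and genes of few UMIs over all cells, Ero1lb (between 15 and 30 per library) and Prdx4 (between 6 and 21). With a library left out, Ero1lb over all cells ranged from -0.15 to 0.16 at 13 h, from -0.0538 to 0.84 at 25 h and from -0.0638 to 0.83 between the times, and in enterocytes from -0.0884 to 0.65 at 25 h. At 13 h it was -0.0156 with all deposited cells, -0.18 with at most 10% mitochondrial UMIs and -0.0057 with the replicate block. Prdx4 ranged from -0.69 to 0.79, from -0.64 to 0.80 and from -0.43 to 0.57 in the 3 comparisons. Qsox1 ranged from -0.0655 to 0.0812 at 13 h and from -0.0198 to 0.12 between the times, and at 13 h was 0.0114 with RLE scaling, 0.0115 with DESeq2, 0.0143 with only the 2 groups compared and 0.0769 with total-count scaling. Between the times Erp29 ranged from -0.0091 to 0.0277 and Gclm from -0.0148 to 0.0478. Ero1l in goblet cells against enterocytes at 25 h was 0.0312 with RLE scaling and 0.0311 with DESeq2, and ranged from -0.0158 to 0.0161. In goblet cells Txndc5 ranged from -0.20 to 0.29 at 13 h and from -0.36 to 0.12 at 25 h, where it was 0.0022 with total-count scaling, and Dnajc10 from -0.22 to 0.0506 between the times.

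Same-numbered libraries did not deviate together (correlations 0.06, -0.02 and -0.08), so the numbers were not taken as pairs, and the replicate block moved no other member count by over 1.5 times. Total-count scaling shifted the median of all goblet genes to 0.16 and 0.13 at 13 h and 25 h and that of goblet against enterocyte in DMSO to -0.18. It moved the share of higher calls from 46.8% to 58.9% at 13 h over all cells, from 48.4% to 68.4% and from 49.6% to 63.8% in goblet cells, from 48.4% to 33.5% between classes in DMSO, and for the class by treatment test from 30.8% to 59.0% (44.3% with RLE scaling) and from 36.2% to 59.0%. Depth limits Ero1lb, with at most 30 UMIs per library, and the goblet class, with between 75 and 109 cells.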

Other observations

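A single cell in DMSO replicate 2, of the enterocyte class, had 309 UMIs of the 9 genes among 17746 (1.74%), against a median of 0.109% in that library's enterocytes and 0.603% in the next highest DMSO enterocyte. It held 64 UMIs of Creld2, 56 of Pdia4, 49 of Pdia6 and 60 of Ero1l, together with 505 of the chaperone gene Hspa5, 126 of Manf and 48 of Ddit3. Its barcode occurred in 1 library only, and 8.39% of its UMIs were mitochondrial. It carried 20.1% of the Creld2 UMIs, 13.6% of the Pdia4 UMIs and 10.4% of the Pdia6 UMIs of its library's 1037 enterocytes, against 0.492% of those of Ero1l. Without it, an alternative chosen after seeing the data, the edgeR log2 fold change at 13 h in enterocytes was 4.39 for Creld2, 3.86 for Pdia4 and 4.75 for Pdia6, and the remaining DMSO enterocytes of that library held 255, 356 and 424 UMIs of the 3 genes.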
